A study of Homo sapiens with 14 samples.

Results

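Direct targets of β-catenin and the TCF/LEF transcription factors were followed through the study, 10 genes in all: AXIN2, MYC, CCND1, TNFRSF19, NKD1, RNF43, ZNRF3, LEF1, SP5 and FZD7. All probes that the platform annotation assigns to them were taken from the table of non-normalized signals, whatever their values. Of the 10 genes, 7 had an annotated probe, and these 7 genes had 11 of the 47323 probes in the table. All 11 passed the filter on dim probes, which 22158 probes of the table passed, and none of the 11 was left out. NKD1, RNF43 and SP5 had no probe in the annotation used here and were not analysed.

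The cells were Mel202, 1 established human cell line of uveal melanoma with mutant GNAQ, whose protein is an alpha subunit that couples receptors to phospholipase C. They were treated for 24 h or 48 h with 3 µM ICG-001, dissolved in DMSO, or with DMSO alone. All 4 groups therefore share the GNAQ mutations and the solvent. ICG-001 is a small molecule described as a blocker of the interaction between the coactivator CBP and β-catenin, and the comparison asks whether its presence altered the level of the targets. Total RNA was hybridised to 14 Illumina bead arrays. DMSO was measured on 3 arrays at each time and ICG-001 on 4. Within each group 2 arrays have titles with a shared number that end in a and b. Such a pair was averaged, which left 2 DMSO replicates and 3 ICG-001 replicates at each time. Pairs are written below with both array numbers, as in 2+3. The labels do not say that replicates came from separate cultures, so p-values reflect only how these samples vary, and that variation may be technical.

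Wnt ligands act through Frizzled and LRP receptors, and in their absence a destruction complex built on AXIN and APC marks β-catenin for degradation. When the complex is held off, β-catenin enters the nucleus, binds TCF and LEF factors, and recruits coactivators such as CBP and p300 to target genes. Several targets act back on the pathway: AXIN2 rebuilds the destruction complex, and ZNRF3 and RNF43 remove Frizzled receptors from the cell surface. In the melanocyte lineage the pathway also acts on MITF, the lineage's main transcription factor.

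Median signals ranged from 113.1 to 139.1 over the 14 arrays, and the number of probes detected on an array (detection p-value below 0.05) was 17619 to 20124. Of 8 melanocyte markers, 6 were measured (SOX10, PMEL, MLANA, TYR, TYRP1 and MITF), with a summed normalized signal of 45200 to 52600 over all replicates. DCT and S100B were not tested. The sum of the 6 lay between 48100 and 52600 in DMSO at 24 h and between 45200 and 46600 in ICG-001 at 24 h. At 48 h it lay between 50300 and 52600 in DMSO and between 48100 and 48600 in ICG-001. In the limma effect averaged over both times, 0 of the 6 rose, 2 fell and 4 did not pass an adjusted p of 0.05. Beside them, 20.7% of all genes rose and 17.1% fell. The 2 were SOX10 (log2 change −0.57, adjusted p = 0.00309) and TYR (−0.29, adjusted p = 0.0261). TYRP1 alone was above 0 (0.23) and did not pass. Immune markers CD68 and CD14 summed to 1370 to 1380 in DMSO and 870 to 957 in ICG-001 at 24 h, and to 1310 to 1390 and 864 to 1050 at 48 h. The 4 measured retinal pigment epithelium markers (LRAT, BEST1, RLBP1 and TTR) summed to 633 to 649 and 781 to 920 at 24 h, and to 543 to 605 and 1010 to 1110 at 48 h. Fibroblast markers COL1A1 and LUM summed to 602 to 604 in DMSO and 155 to 215 in ICG-001 at 24 h, and to 780 to 867 and 187 to 215 at 48 h. The other fibroblast markers (COL1A2, COL3A1, DCN and PDGFRA) and the immune markers PTPRC, CD3E and MS4A1 were not tested, and of the endothelial and epithelial lists only EMCN and CDH1 were. CDH1 read 169 to 176 in DMSO and 68.4 to 124 in ICG-001 at 24 h, and 394 to 422 and 202 to 275 at 48 h. EMCN read 363 to 409 and 252 to 409 at 24 h, and 261 to 341 and 239 to 266 at 48 h. In the effect averaged over both times, LUM fell (−2.02, adjusted p = 2.98e-06) and COL1A1 did not pass (−0.30, adjusted p = 0.162). BEST1 (0.71, adjusted p = 0.000232) and TTR (0.65, adjusted p = 0.00329) rose, and LRAT (0.05) and RLBP1 (−0.05) did not pass. CD68 (−0.54, adjusted p = 0.00129), CD14 (−0.39, adjusted p = 0.0223) and CDH1 (−0.76, adjusted p = 0.00563) fell. EMCN did not pass (−0.21, adjusted p = 0.306). The part of these marker shifts in the results below was not tested. All samples were of 1 cell line, and in its bulk RNA fewer cells with a marker and less marker RNA per cell cannot be told apart.

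Upstream sequence is shown for LEF1 and TNFRSF19, the members with a measured value that the RefSeq promoter table covers, and for SP5, a target without a value here, shown because it alone of the members' windows holds the motif searched. The sequences are from RefSeq (GRCh38.p14), 250 bases before an annotated transcript start, 5′ to 3′ on the gene's strand. The letters searched, on both strands, were forms of the TCF/LEF motif: CTTTGAA, then CTTTGAT, then CTTTGTA and finally CTTTGTT. Capitals mark a match. Of 35116 such windows in the table, with no chromosome left out, 4199 (12%) hold at least 1 match. For TNFRSF19 the first window, chr13:23570162-23570411 (+), ends at the gene's annotated start, and the second, chr13:23579110-23579359 (+), lies within the gene. For LEF1 the window is chr4:108166302-108166551 (−), within the gene's annotated span, and for SP5 it is chr2:170715087-170715336 (+).
TNFRSF19, outer start: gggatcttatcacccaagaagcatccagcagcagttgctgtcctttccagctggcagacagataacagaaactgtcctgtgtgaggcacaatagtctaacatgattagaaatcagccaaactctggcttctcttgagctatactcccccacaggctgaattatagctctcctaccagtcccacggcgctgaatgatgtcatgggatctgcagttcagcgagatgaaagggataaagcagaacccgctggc
TNFRSF19, inner start: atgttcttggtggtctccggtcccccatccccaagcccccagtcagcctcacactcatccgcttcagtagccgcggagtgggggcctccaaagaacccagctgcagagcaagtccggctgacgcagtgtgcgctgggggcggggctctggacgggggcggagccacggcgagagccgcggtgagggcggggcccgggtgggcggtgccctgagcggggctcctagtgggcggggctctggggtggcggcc
LEF1: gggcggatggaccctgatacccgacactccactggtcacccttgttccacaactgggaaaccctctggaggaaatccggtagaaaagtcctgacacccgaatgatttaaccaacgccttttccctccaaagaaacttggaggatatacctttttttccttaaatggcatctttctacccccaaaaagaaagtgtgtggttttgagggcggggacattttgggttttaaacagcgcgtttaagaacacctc
SP5: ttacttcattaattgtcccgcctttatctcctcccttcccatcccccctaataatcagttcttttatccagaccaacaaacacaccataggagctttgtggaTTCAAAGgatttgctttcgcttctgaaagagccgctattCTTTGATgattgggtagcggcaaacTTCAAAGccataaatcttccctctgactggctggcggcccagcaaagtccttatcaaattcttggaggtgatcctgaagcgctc
The SP5 window holds 3 matches, at 148 to 142, 109 to 103 and 84 to 78 bases before the start. The one in the middle reads CTTTGAT on the gene's strand, and the outer ones read CTTTGAA on the opposite strand. These letters are not in the 2 TNFRSF19 windows, in the LEF1 window or in the 2 windows of RNF43, which are not printed. Thus 1 of the 6 member windows taken holds a match.

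No probe of the targets fell under ICG-001: in the mean effect, averaged over 24 h and 48 h, 8 of the 11 probes rose, 0 fell and 3 did not pass. An adjusted p below 0.05 in limma counts as passing, and 16.5% of all probes rose and 16.7% fell by the same rule. The 8 probes belong to AXIN2, MYC (2), CCND1, TNFRSF19 (1 of 2), ZNRF3 and LEF1 (2), and the 2 probes of FZD7 did not pass. The median log2 change of the 11 was 0.44, against −0.02 over all probes. In the 8 that rose, the lowest ICG-001 replicate at each time lay above the highest DMSO replicate of that time, which held for 15.1% of all probes. Taken gene by gene at the probe with the highest mean, 6 of 7 genes rose and 0 fell, beside 20.7% of all 11679 genes that rose. These are levels relative to the other probes of an array. With signals as deposited the median of all probes was −0.20. The log2 change turned there to −0.01 for AXIN2, −0.13 for CCND1, −0.03 for ZNRF3 and −0.02 for LEF1 ILMN_1679185. It also turned to −0.05 for TNFRSF19 ILMN_1714757, and the FZD7 probes, negative already, were at −0.36. The MYC probes, TNFRSF19 ILMN_1704154 and LEF1 ILMN_2213136 stayed positive.

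At 24 h, 6 of the 11 probes rose, 0 fell and 5 did not pass, beside 8.80% of all probes that rose and 8.32% that fell. The change was above 0 in 10 of 11, with a median of 0.58 against −0.01 over all probes. At 48 h, 3 rose, 0 fell and 8 did not pass, beside 9.44% and 9.25% of all probes, and the median was 0.34 against −0.02. At each time 8 member probes had all ICG-001 replicates above all DMSO replicates and 1 had all below, beside 22.5% and 23.1% of all probes at 24 h and 23.4% and 25.7% at 48 h. The count of 6 at 24 h was 3 without the DMSO pair 2+3, without the ICG-001 pair 1+2 or without ICG-001 replicate 4. The count of 3 at 48 h was 1 without either DMSO 48 h replicate and 5 without either DMSO 24 h replicate.

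**Figure D1:**
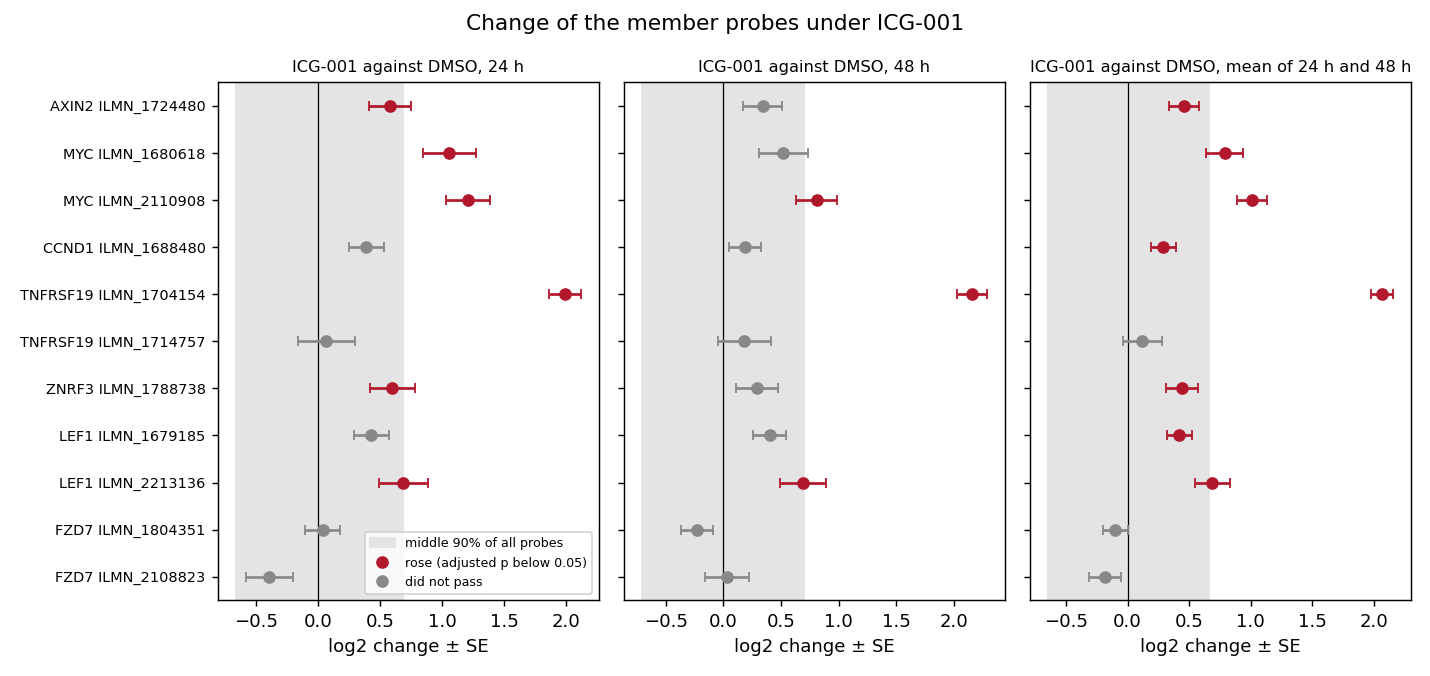
Log2 change of each of the 11 probes under ICG-001 against DMSO, with its standard error, at 24 h, at 48 h and as the mean of both. Red points rose, grey points did not pass, and the grey band spans the central range of all 22158 probes (−0.66 to 0.69 at 24 h). The probe TNFRSF19 ILMN_1704154 and both MYC probes lie beyond the band at 24 h, and LEF1 ILMN_2213136 (0.69) lies at its edge.

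AXIN2, the scaffold of the destruction complex that the pathway itself induces, is encoded on chromosome 17 (65528563 to 65561648, GRCh38.p14) and had 1 probe, ILMN_1724480. Its log2 level was 5.30 and 5.23 in the DMSO replicates at 24 h (1 and 2+3) and 5.87, 5.61 and 6.07 in the ICG-001 replicates (1+2, 3 and 4). At 48 h it was 5.50 and 5.52 in DMSO (1+2 and 3) and 5.94, 5.60 and 6.02 in ICG-001 (1, 2 and 3+4). All ICG-001 replicates were above the DMSO replicates of their time, by a narrow margin for replicate 2 at 48 h. AXIN2 rose at 24 h, 1.49-fold (log2 change 0.58 ± 0.17 SE, adjusted p = 0.0384), and in the mean, 1.38-fold (0.46 ± 0.12, adjusted p = 0.0125). At 48 h the change was 0.34 ± 0.17 (95% interval −0.03 to 0.72) and did not pass (adjusted p = 0.186). The call at 24 h ended without any of 7 replicates: DMSO 24 h replicate 1 (adjusted p = 0.0955) or pair 2+3 (0.152), ICG-001 24 h pair 1+2 (0.0898) or replicate 4 (0.111), ICG-001 48 h replicate 1 (0.0513), or either one of DMSO at 48 h (0.0531). It passed under 7 of 24 alternatives at 24 h and did not with the title number as a random block (adjusted p = 0.0759), and the change was 0.14 at 24 h (adjusted p = 0.118) and 0.11 in the mean (adjusted p = 0.0524) in the authors' table.

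The signal of AXIN2 lay near background, which the deposited values show. On the 3 DMSO arrays at 24 h it was 139.5, 152.0 and 145.3, and the array with 145.3 was not above background. On the 4 ICG-001 arrays at 24 h it was 176.2, 149.9, 140.2 and 151.8. At 48 h it was 176.5, 152.3 and 152.2 in DMSO and 145.0, 126.7, 201.4 and 152.3 in ICG-001. These unscaled signals overlapped between treatments at both times. Its mean level stood at percentile 32.8 of all probes tested. The array with a title ending in b read lower than its partner in all 4 pairs, by 0.23, 0.83, 0.40 and 0.81 on the log2 scale. Among the b arrays alone, 1 per group, the log2 difference between ICG-001 and DMSO was 0.34 at 24 h and 0.32 at 48 h. Over the 10 replicates, the log2 values that followed AXIN2 most closely were those of MBTPS2 (Pearson r = 0.97), CCDC91 (0.96) and MINPP1 (0.95). These 3 were taken from the tested probes with a gene symbol (15665 counting AXIN2) and are given as a description. Probes without a symbol were not considered.

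**Figure D2:**
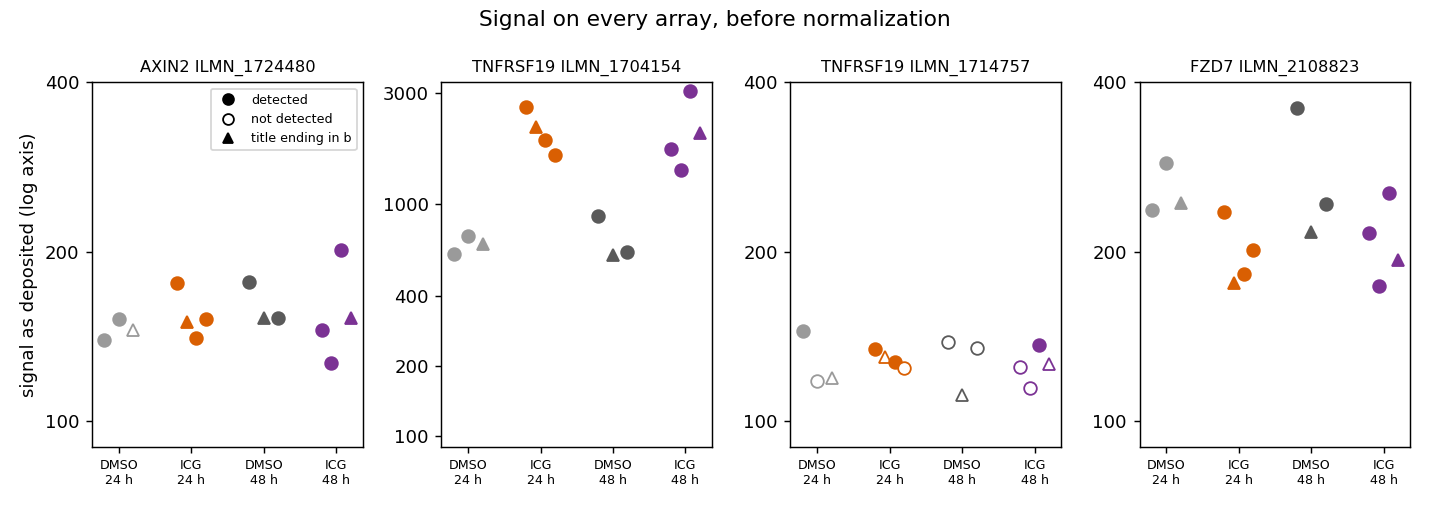
Deposited signal of 4 probes on each of the 14 arrays, on a log axis, by treatment and time. Open symbols were not above background, and triangles are arrays with titles ending in b. For AXIN2 the arrays of all groups overlap, while for TNFRSF19 ILMN_1704154 all ICG-001 arrays lie above all DMSO arrays.

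ZNRF3, the ubiquitin ligase that clears Frizzled receptors from the membrane, lies on chromosome 22 (28883572 to 29057488) and had 1 probe, ILMN_1788738. Its log2 level was 6.22 and 5.63 in DMSO at 24 h and 6.50, 6.63 and 6.42 in ICG-001. For 48 h the levels were 6.23 and 6.04 in DMSO and 6.47, 6.54 and 6.25 in ICG-001. The groups did not overlap at either time, but at 48 h the pair 3+4 (6.25) was only just above the DMSO pair (6.23). ZNRF3 rose at 24 h, 1.51-fold (0.60 ± 0.18, adjusted p = 0.0445), and in the mean, 1.36-fold (0.44 ± 0.13, adjusted p = 0.0214). At 48 h the change was 0.29 ± 0.18 (−0.11 to 0.69, adjusted p = 0.303). The rise at 24 h rested on the DMSO pair 2+3: without it the change was 0.30 (adjusted p = 0.327), and in the mean 0.29 (adjusted p = 0.0797). The 24 h call also ended without any other replicate except DMSO 24 h replicate 1 (adjusted p = 0.0509 to 0.116), and the mean's call without DMSO 48 h replicate 3 (0.39, adjusted p = 0.0796). It was above background on 2 of 3 DMSO arrays at 24 h and on every array of the other groups. Among the b arrays alone the difference was 1.42 at 24 h and −0.13 at 48 h, and without the b arrays the 24 h change was 0.34 (adjusted p = 0.124).

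LEF1, the DNA-binding partner of β-catenin and itself a target, lies on chromosome 4 (108047548 to 108168932) and had 2 probes. With ILMN_2213136 the log2 level was 7.93 and 7.24 in DMSO at 24 h and 8.34, 8.28 and 8.20 in ICG-001. At the later time it was 7.63 and 7.94 in DMSO and 8.51, 8.61 and 8.31 in ICG-001. Every ICG-001 replicate was above both DMSO replicates of its time. This probe rose at 24 h (1.61-fold, 0.69 ± 0.20, adjusted p = 0.0353), at 48 h (1.62-fold, 0.69 ± 0.20, adjusted p = 0.0327) and in the mean (1.62-fold, adjusted p = 0.00331). With ILMN_1679185 the level was 7.75 and 7.40 in DMSO against 8.08, 7.90 and 8.05 in ICG-001 at 24 h. The corresponding 48 h values were 7.68 and 7.74 against 8.06, 8.22 and 8.04. Again no replicate overlapped, and the mean effect rose 1.34-fold (0.42 ± 0.10, adjusted p = 0.00868). The single times did not pass for it (0.43 ± 0.14, adjusted p = 0.0594 at 24 h, and 0.40 ± 0.14, adjusted p = 0.0734 at 48 h). The probes moved together over the replicates (Pearson r = 0.97 over 10 replicates).

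For LEF1, the mean effect passed under all 23 alternatives with ILMN_2213136 and all 22 with ILMN_1679185. The calls at single times did not hold as widely. Without the DMSO pair 2+3 the 24 h change of ILMN_2213136 was 0.34 (adjusted p = 0.274), and without DMSO replicate 1 it was 1.04 (adjusted p = 0.00848). That call also ended without ICG-001 24 h pair 1+2 (0.0908), replicate 3 (0.0787) or replicate 4 (0.0632). Its 48 h call ended without DMSO 48 h pair 1+2 (0.213) or replicate 3 (0.0675), and without ICG-001 replicate 1 (0.0817) or 2 (0.0927), all adjusted p. ILMN_1679185 passed at 24 h under 9 of 23 alternatives, among them the title number as a random block (0.50, adjusted p = 0.0165), the authors' table (0.24, adjusted p = 0.0282) and without DMSO 24 h replicate 1 (0.60, adjusted p = 0.0353). At 48 h it passed under 7, among them without either DMSO 24 h replicate (adjusted p = 0.0476).

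MYC, the growth-promoting transcription factor on chromosome 8 (127735434 to 127742951), had 2 bright probes, at percentiles 96.6 and 94.2 of the level of all probes. With ILMN_2110908 the log2 level was 10.94 and 10.34 in DMSO at 24 h and 11.91, 11.96 and 11.70 in ICG-001. After 48 h the values were 11.05 and 11.11 in DMSO and 11.86, 11.82 and 11.99 in ICG-001. ICG-001 replicates were above DMSO replicates at both times, and the gap was wider than the spread within any group. This probe rose 2.32-fold at 24 h (1.21 ± 0.18, adjusted p = 0.00172), 1.75-fold at 48 h (0.81 ± 0.18, adjusted p = 0.00996) and 2.01-fold in the mean (adjusted p = 0.00018). The 48 h call ended without the DMSO 48 h pair 1+2 (0.78, adjusted p = 0.0716) or replicate 3 (0.84, adjusted p = 0.0544). With ILMN_1680618 the level was 11.93 and 11.07 in DMSO against 12.55, 12.56 and 12.56 in ICG-001 at 24 h. In the 48 h groups it was 11.96 and 12.01 against 12.37, 12.67 and 12.48. The low value among the DMSO replicates was again the pair 2+3 of 24 h.

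With ILMN_1680618, MYC rose 2.08-fold at 24 h (1.06 ± 0.21, adjusted p = 0.00752) and 1.73-fold in the mean (0.79 ± 0.15, adjusted p = 0.00228). At 48 h the change was 0.52 ± 0.21 (0.06 to 0.98) and did not pass (adjusted p = 0.112), although it passed under 6 alternatives, among them the title number as a random block (adjusted p = 0.048) and the fits that leave out 1 DMSO replicate of 24 h, whichever it is (adjusted p = 0.0191 in both). Leaving out the DMSO pair 2+3 of 24 h lowered the 24 h change to 0.63 (adjusted p = 0.042), and leaving out DMSO replicate 1 raised it to 1.49. The MYC probes passed at 24 h under all 24 and all 23 alternatives, and their values over the 10 replicates moved together (Pearson r = 0.95). Among the b arrays alone the differences were 1.41 and 1.52 at 24 h and 0.63 and 0.93 at 48 h.

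**Figure D3:**
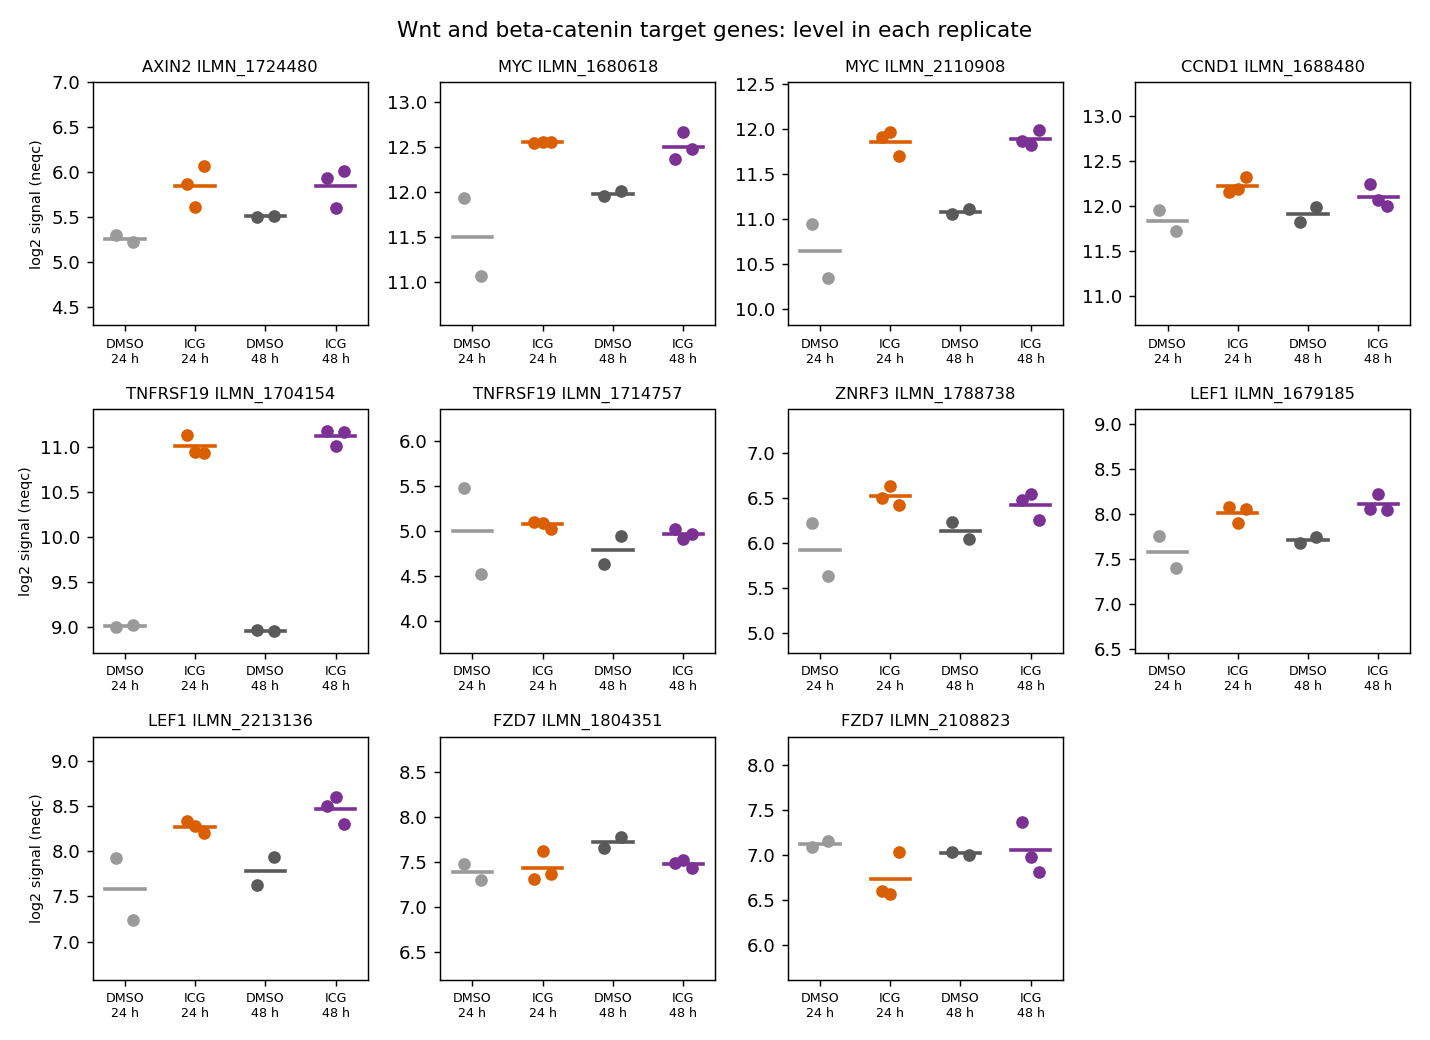
Log2 level (normalized signal) of each probe in the 10 replicates, by treatment and time; bars are group means, and each panel spans the same range around its own centre. One DMSO replicate at 24 h, the pair 2+3, lies below the other for 9 of the 11 probes, all but TNFRSF19 ILMN_1704154 and FZD7 ILMN_2108823.

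CCND1 encodes cyclin D1, which drives entry into the cell cycle, and lies on chromosome 11 (69641156 to 69654474). Its probe, ILMN_1688480, had log2 levels of 11.95 and 11.72 in DMSO and 12.15, 12.19 and 12.32 in ICG-001 at 24 h. The 48 h replicates read 11.82 and 11.99 in DMSO and 12.24, 12.06 and 12.00 in ICG-001. The groups did not overlap, but at 48 h the lowest ICG-001 and the highest DMSO value nearly met. CCND1 rose 1.22-fold in the mean (0.29 ± 0.10, adjusted p = 0.0428), and neither 24 h (0.39 ± 0.14, 0.08 to 0.69, adjusted p = 0.0811) nor 48 h (0.19 ± 0.14, −0.11 to 0.50, adjusted p = 0.378) passed. The 24 h change passed under 7 alternatives, among them the title number as a random block (0.40, adjusted p = 0.0167) and the authors' table (0.39, adjusted p = 0.0169). The mean effect passed under 12 of 23 alternatives, and leaving out any 1 of 8 replicates ended it (adjusted p = 0.057 to 0.15). Those were all but DMSO 24 h replicate 1 and ICG-001 48 h pair 3+4.

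TNFRSF19, a member of the TNF receptor superfamily also called TROY, lies on chromosome 13 (23570412 to 23676093) and had the largest change of the 11 probes. With ILMN_1704154 its log2 level was 9.01 and 9.03 in DMSO and 11.14, 10.95 and 10.94 in ICG-001 at 24 h. For 48 h the levels were 8.97 and 8.96 in DMSO and 11.18, 11.02 and 11.17 in ICG-001. The replicates of a group were close together and the treatments far apart. TNFRSF19 rose 3.97-fold at 24 h (1.99 ± 0.13, adjusted p = 4.89e-05), 4.47-fold at 48 h (2.16 ± 0.13, adjusted p = 1.53e-05) and 4.21-fold in the mean (adjusted p = 5.77e-07). It passed under all 24 alternatives at each time, with changes of 1.73 to 2.03 at 24 h and 1.88 to 2.21 at 48 h. With signals as deposited, which are not among these, its mean change was 1.5. Before any scaling, signals were 611.5, 727.1 and 673.3 on the DMSO arrays at 24 h and 2628.6, 2155.2, 1892.4 and 1633.8 on the ICG-001 arrays. At the later time they were 890.9, 601.4 and 622.6 in DMSO and 1718.5, 1398.5, 3080.2 and 2016.1 in ICG-001, so the lowest ICG-001 array was above the highest DMSO array.

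The other TNFRSF19 probe, ILMN_1714757, was above background on 1 of 3 DMSO and 2 of 4 ICG-001 arrays at 24 h, and on 0 of 3 and 1 of 4 at 48 h. Its log2 level was 5.47 and 4.52 in DMSO and 5.10, 5.09 and 5.02 in ICG-001 at 24 h. The corresponding 48 h values were 4.63 and 4.94 in DMSO and 5.02, 4.91 and 4.96 in ICG-001. The groups overlapped at both times. Its changes were 0.07 ± 0.23 at 24 h (−0.43 to 0.57) and 0.18 ± 0.23 at 48 h (−0.32 to 0.68), and neither passed (adjusted p = 0.873 and 0.639). In the mean it was 0.12 (adjusted p = 0.604), and it was 0.36 (adjusted p = 0.0285) without DMSO 24 h replicate 1. Without the DMSO pair 2+3 the direction turned, to −0.41 at 24 h and −0.11 in the mean, and neither passed. So the rise of TNFRSF19 was measured with 1 of its 2 probes, and over the 10 replicates the correlation of the probes was weak (Pearson r = 0.24).

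FZD7, a Frizzled receptor of Wnt ligands, lies on chromosome 2 (202033855 to 202038441) and was the member whose probes did not pass at any time. With ILMN_1804351 the log2 level was 7.48 and 7.30 in DMSO and 7.31, 7.62 and 7.37 in ICG-001 at 24 h, where the groups overlapped. After 48 h the values were 7.65 and 7.78 in DMSO and 7.49, 7.52 and 7.43 in ICG-001, all below DMSO. Its changes were 0.04 ± 0.14 at 24 h (−0.26 to 0.35, adjusted p = 0.875) and −0.23 ± 0.14 at 48 h (−0.54 to 0.07, adjusted p = 0.273). With ILMN_2108823 the level was 7.09 and 7.15 in DMSO and 6.60, 6.56 and 7.03 in ICG-001 at 24 h, all below DMSO. In the 48 h groups it was 7.03 and 7.00 in DMSO and 7.36, 6.97 and 6.81 in ICG-001, and the groups overlapped. Its changes were −0.39 ± 0.19 at 24 h (−0.80 to 0.02, adjusted p = 0.18) and 0.03 ± 0.19 at 48 h (−0.39 to 0.44, adjusted p = 0.939). The probes disagreed on the time of their lower value and had a Pearson r of 0.01 over the 10 replicates. With the title ending as a model term, ILMN_2108823 at 24 h was the single fall among the alternatives counted (−0.48, adjusted p = 0.0388).

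Whether the effect of ICG-001 differed between times was tested directly as the difference of the effects at 48 h and 24 h. None of the 11 probes passed (limma, 0 also at an unadjusted p below 0.05), nor did any of the 22158 probes, of which 1118 had an unadjusted p below 0.05. The difference was −0.54 ± 0.30 (−1.20 to 0.11) for MYC ILMN_1680618 and −0.41 ± 0.25 (−0.95 to 0.14) for its other probe. Without DMSO 24 h replicate 1 these were −0.97 and −0.71, and without the pair 2+3 both were −0.11. For AXIN2 it was −0.24 ± 0.24 (−0.76 to 0.29), and for ZNRF3 −0.31 (−0.87 to 0.25), which was 0.00 without the b arrays. TNFRSF19 ILMN_1704154 differed by 0.17 ± 0.18 (−0.22 to 0.56). The larger count at 24 h is therefore not shown to be a change with time. In DMSO alone, 48 h against 24 h, 0 of the 11 passed and 1 had an unadjusted p below 0.05, MYC ILMN_2110908 (0.44 ± 0.19, adjusted p = 0.748), while 2 of all probes passed (0.00903%). This comparison and the 2 effects share the DMSO samples.

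**Figure D4:**
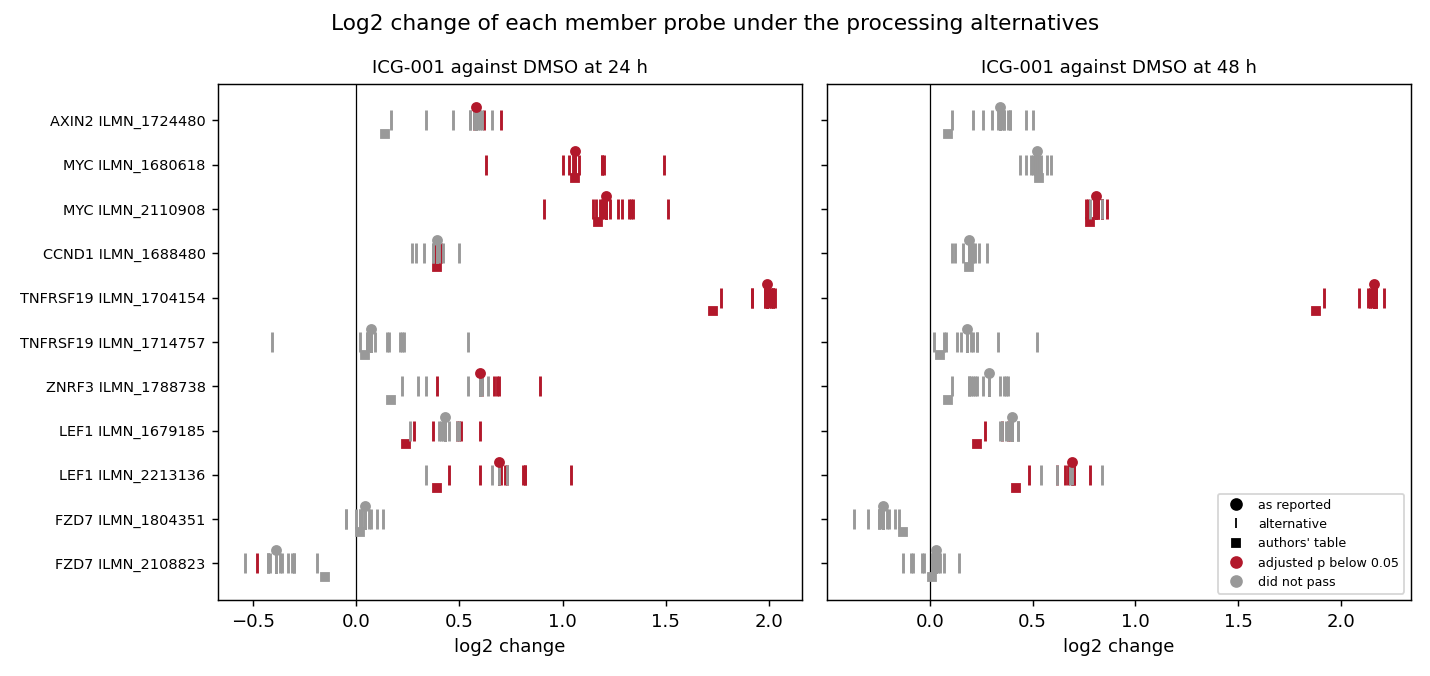
Log2 change of each probe at 24 h and at 48 h as reported (circles), under each processing alternative (ticks) and in the authors' own table (squares); red marks an adjusted p below 0.05, in either direction. For AXIN2 and ZNRF3 the authors' table gives 0.14 and 0.17 at 24 h, whereas all values of TNFRSF19 ILMN_1704154 lie at 1.73 or above.

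The rest of the Wnt pathway was read at 1 probe per gene, that with the highest mean, with p-values from the fit over all probes. Of 43 other targets, 30 were tested: 8 rose, 3 fell and 19 did not pass in the mean effect, with a median of 0.13 against 0.01 over all genes. MITF is in this list and among the melanocyte markers. As a background, 20.7% of all genes rose and 17.1% fell. The sizes below depend on the processing: of 40 named probes past the threshold, 38 also passed in the authors' table, but 24 were over 1.5 times smaller there on the log2 scale. Those 24 include both probes of VEGFA (0.63 and 0.24), NRCAM (0.95 and 0.56) and DACT1 (0.43 and 0.36), and also FZD4 (0.21), SOSTDC1 (−0.36), CSNK1A1 (0.58 and 0.28), TLE4 (0.25), TLE1 (0.36) and TLE5 ILMN_1707958 (−0.32). Of the 40, 30 passed under every alternative counted, which leaves out signals as deposited. VEGFA, the angiogenic growth factor, rose 3.35-fold (1.75 ± 0.10, adjusted p = 2.99e-06), and its other probe rose 1.96-fold. NRCAM, a neural adhesion molecule, rose 3.15-fold (1.65 ± 0.10, adjusted p = 5.15e-06), with its other probe at 2.29-fold. CD44, an adhesion receptor, rose 1.52-fold with its brightest probe (adjusted p = 0.000485), and its other probes had changes of 0.15 and 0.05 that did not pass. ID2, an inhibitor of helix-loop-helix factors, fell by 0.82 with 1 probe (adjusted p = 0.000301) and had −0.08 with the brighter one (adjusted p = 0.535). The 3 that fell were NKD2, PLAUR and PPARD, named here after their values were seen. NKD2, a feedback inhibitor related to NKD1, fell by 0.45 (adjusted p = 0.0201), a call that ended without DMSO 24 h replicate 1 or DMSO 48 h replicate 3. PPARD lost its call without the pair 2+3 of DMSO at 24 h or the pair 1+2 of DMSO at 48 h.

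Of 21 ligands and secretion genes, 4 were tested and 0 passed. Among 16 tested receptor genes of 21, 6 rose and 1 fell in the mean, and the median was 0.21. FZD4 rose 1.71-fold (0.77 ± 0.13, adjusted p = 0.00103) and FZD6 1.46-fold (adjusted p = 0.00239), while FZD2 fell by 0.49 (adjusted p = 0.00328). The receptors FZD3, FZD9 and RYK also rose, RYK with a call that ended without any 1 of 6 replicates (adjusted p up to 0.15). PTK7, a kinase-dead receptor, rose 1.66-fold with 1 probe (adjusted p = 0.000458) and its other probe fell by 0.28 (adjusted p = 0.0359), which passed under 14 of 22 alternatives and was lost without any 1 of 7 replicates (adjusted p up to 0.139). Of 3 tested secreted inhibitors, SFRP1 rose 1.73-fold (adjusted p = 0.000911) and SOSTDC1 fell by 0.76 (adjusted p = 0.000349). The SOSTDC1 change was −0.28 at 24 h, which did not pass (adjusted p = 0.222), and −1.25 at 48 h (adjusted p = 0.000505). The difference between the times did not pass (−0.97, adjusted p = 0.968).

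In the destruction complex 4 of 8 tested genes rose, 0 fell and 4 did not pass, and APC was not tested. CSNK1A1, the kinase that primes β-catenin, rose 2.05-fold (1.04 ± 0.12, adjusted p = 0.000128), and of its other probes 1 rose by 0.51 and 1 had 0.22 and did not pass. AMER1 (0.48, adjusted p = 0.00506), FBXW11 (0.33, adjusted p = 0.0132) and AXIN1 (0.31, adjusted p = 0.0487) rose by less. AXIN1 passed under 13 of 23 alternatives and lost its call without any 1 of 8 replicates (adjusted p up to 0.153), and FBXW11 lost its own without DMSO 48 h replicate 3 (adjusted p = 0.0602). GSK3B, the kinase that marks β-catenin for degradation, had −0.13 ± 0.15 (−0.46 to 0.19, adjusted p = 0.54). DACT1, an antagonist that binds Dishevelled, rose 2.28-fold (1.19 ± 0.15, adjusted p = 0.000178), and its other probe rose 2.05-fold. Of the 10 tested genes of that list 2 rose (DACT1 and CSNK1E), 1 fell (DVL3, a call that ended without any 1 of 5 replicates) and 7 did not pass. Probes of 1 gene went opposite ways for CSNK1E, at 0.32 (adjusted p = 0.0286) and −0.41 (adjusted p = 0.00441), and the rise ended without any 1 of 5 replicates (adjusted p up to 0.127). Which transcripts the differing probes of TNFRSF19, FZD7, PTK7, CSNK1E, CREBBP and CTNNB1 (described below) match was not checked. CSNK1D had 0.15 with its brighter probe, which did not pass, and fell by 0.68 with the other (adjusted p = 0.000364).

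β-catenin itself, CTNNB1, had 3 probes. The bright pair had mean changes of 0.41 (−0.01 to 0.84, adjusted p = 0.125) and 0.40 (−0.06 to 0.85, adjusted p = 0.169) and did not pass. They passed under 4 alternatives each, among them the title number as a random block (0.49, adjusted p = 0.0311, and 0.48, adjusted p = 0.0442). Without DMSO 24 h replicate 1 they were 0.70 and 0.69 and passed (adjusted p = 0.00287 and 0.00629), and without the pair 2+3 they were 0.13 and 0.10. At single times the bright pair did not pass, with 0.67 and 0.74 at 24 h (adjusted p = 0.119 and 0.107). At 48 h its changes were 0.16 and 0.05 (adjusted p = 0.737 and 0.929). The dim probe, ILMN_1651617, was not above background on any DMSO array and was above it on all ICG-001 arrays. Its measured log2 change was 1.25 at 24 h (adjusted p = 0.00824) and 1.75 at 48 h (adjusted p = 0.00139). Lower bounds took for DMSO the lowest signal of a detected probe on each array, or the probe's own where higher. They were 1.66-fold at 24 h and 2.48-fold at 48 h and were not tested. In the authors' table the probe's mean log2 change was 0.38, against 1.5 here, so the bounds hold only for the processing used here. Among 15 tested TCF factors and cofactors of 17, 4 rose, 2 fell and 9 did not pass, with a median of −0.11. TLE5, a short member of the Groucho family of corepressors, fell with all 3 probes (−0.79, −1.09 and −1.21, adjusted p = 0.000131, 2.8e-05 and 0.000131). TLE4 rose 1.92-fold (adjusted p = 0.000992), TLE1 1.61-fold (adjusted p = 0.00324) and SMARCA4, a chromatin remodeller, 1.39-fold (adjusted p = 0.00365). PYGO1 also rose and BCL9L fell, the latter passing under 12 of 23 alternatives. TCF7L2 had −0.11 ± 0.10 (−0.32 to 0.10, adjusted p = 0.428) and EP300, which encodes p300, 0.01 ± 0.16 (−0.33 to 0.36, adjusted p = 0.959). CREBBP, which encodes CBP, had −0.21 ± 0.09 (−0.41 to −0.01, adjusted p = 0.107) with its brighter probe and rose by 0.58 with the other (adjusted p = 0.0222). That other probe lay near background, above it on 1 of 3 DMSO arrays at 24 h and 2 of 3 at 48 h. Its replicates overlapped between treatments at 24 h. At 48 h they did not overlap, and the probe rose by 0.77 (adjusted p = 0.0476). The call of its mean effect ended in the authors' table (0.13, adjusted p = 0.059) and with no filter on dim probes. That call also ended without the DMSO pair 2+3 of 24 h or the pair 1+2 of 48 h.

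**Figure D5:**
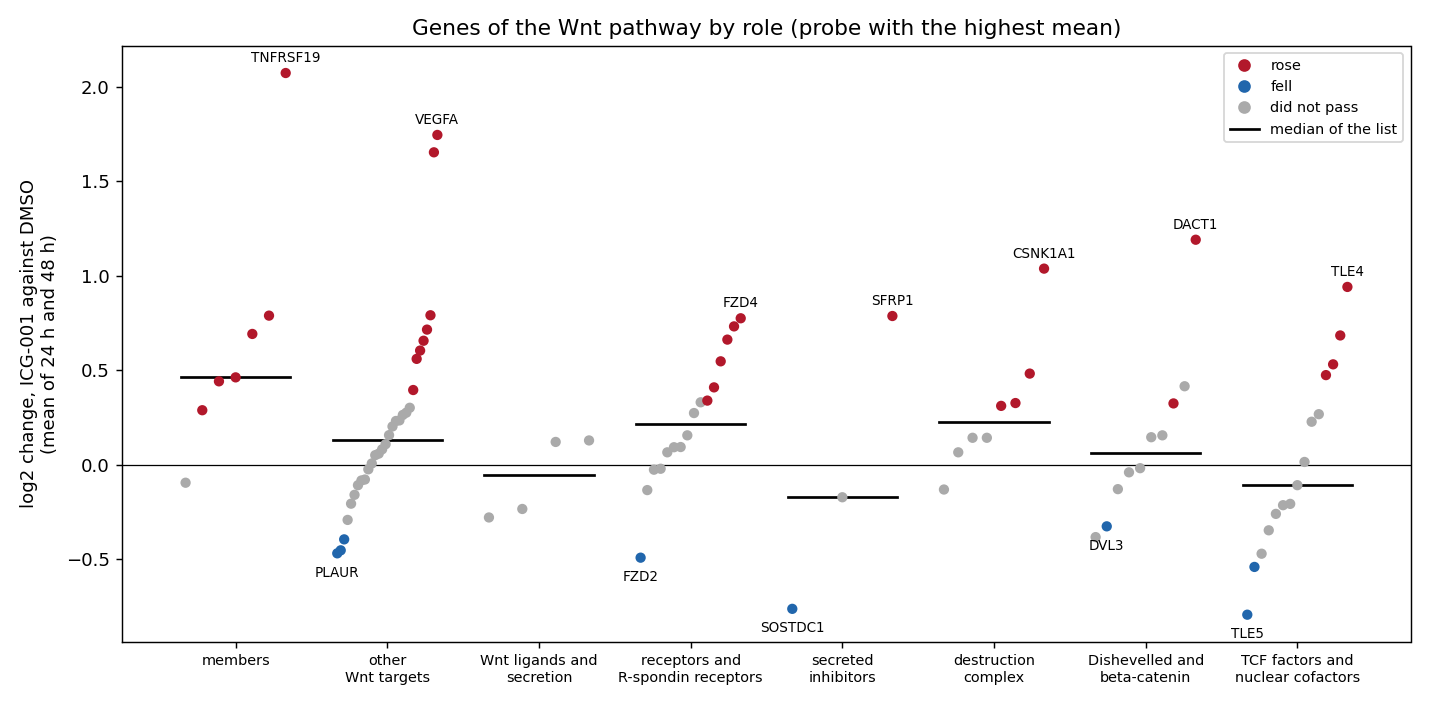
Mean log2 change under ICG-001 of the tested genes in each list of the Wnt pathway, at the probe with the highest mean; red rose, blue fell, grey did not pass, and bars are list medians. The first column holds the 7 targets described above, with a median of 0.46; VEGFA and TNFRSF19 are the highest points.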

How the data were processed

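Per the file headers, each of the 14 arrays has, for 47323 probes, a deposited intensity before normalization (probe signal) and a detection p-value. The authors' own table holds 22579 probes on a scale close to log2, and the only tool listed in the submitters' processing notes is lumi. Its version and the steps run with it were not stated there. Signals were background-corrected, quantile-normalized and log2-transformed by neqc with an offset of 16 (R 4.3.3, limma 3.58.1). Probes with a detection p below 0.05 on at least 3 arrays were kept (22158). Arrays of a shared title number were averaged to 10 replicates. A means model over the 4 groups was fitted with lmFit and eBayes (6 residual degrees of freedom), with two-sided p-values adjusted by Benjamini-Hochberg over all 22158 probes and a threshold of 0.05. The number of arrays limits the precision. The model fit and the adjustment of p-values were tested on simulated data. The background correction, normalization, filter and averaging were not.

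The platform annotation, which can be old, gives 16545 probes 1 gene symbol and 3 probes several, and the other probes are unnamed here. Members and lists were chosen with earlier results of these data known. All member probes are named. From each other list at most 4 genes with any probe past the threshold in the mean effect, those with the smallest p, are named, plus CTNNB1, APC, GSK3B, TCF7L2, CREBBP and EP300, and 3 probes most like AXIN2. Genes named outside this rule (FZD3, FZD9, RYK, DVL3, PYGO1, BCL9L, NKD2, PLAUR and PPARD) were chosen after their values were seen. Alternatives covered background correction, normalization, the filter, the paired arrays, the authors' table, 1 probe per gene, the samples fitted, the model and each replicate left out. Signals as deposited and the b arrays alone were added after seeing the data and are not in the counts of alternatives.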

Additional observations from a re-analysis of the deposited data

How the results depend on the processing

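The count of member probes that rose at 24 h was 6 and ran from 3 to 8 over 24 alternatives. It was 3 with no filter on dim probes, 3 with only the groups compared in the fit, and 3 to 6 when 1 replicate was left out. The count at 48 h was 3. It was 5 with every array as a replicate, 5 with the title ending as a term, and 1 to 5 when 1 replicate was left out. The count for the mean effect, 8, ran from 6 to 9, and 0 probes passed throughout in the test between times and in DMSO alone. With signals as deposited, an alternative chosen after seeing the data in which the median of all probes shifted by −0.20, the mean log2 change turned to −0.01 for AXIN2, −0.13 for CCND1, −0.03 for ZNRF3 and −0.02 for LEF1 ILMN_1679185. Relative to that median they were 0.19, 0.07, 0.17 and 0.18. TNFRSF19 ILMN_1714757 turned to −0.05, or 0.15 relative to the median. The FZD7 probes, negative already, were at −0.36, or −0.16 relative to the median. The MYC probes, TNFRSF19 ILMN_1704154 and LEF1 ILMN_2213136 stayed positive. The cause was not tested.

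At 24 h, 204 of the single member values kept their side of the threshold under the alternatives, 38 lost a call and 17 gained one. At 48 h these were 239, 7 and 13, and for the mean 233, 14 and 1. Among those that kept their side, the sign changed in 3 at 24 h, 5 at 48 h and 1 in the mean, all in values that did not pass: TNFRSF19 ILMN_1714757 (to −0.41 at 24 h and −0.11 in the mean) and FZD7 ILMN_1804351 (to −0.05 at 24 h) and ILMN_2108823 (to −0.13 at 48 h). Calls over all probes also moved: at 24 h from 3794 to 1885 without the DMSO pair 2+3 and to 6726 with the title ending as a term, and at 48 h from 4140 to 1643 without the DMSO pair 1+2 and to 6704 with that term. Leaving out a DMSO replicate leaves 1 at that time, which is assumed to vary like the other groups. No paired analysis was possible because each number in a title occurs in a single group. AXIN2, ZNRF3 and TNFRSF19 ILMN_1714757 lie near background, where the offset and background correction set the size of a change.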

Other observations

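In the arrays with titles ending in b, 1 per group and compared with no test, 10 of the 11 probes were higher in ICG-001 than in DMSO at 24 h and 9 at 48 h. The lower values were those of FZD7 ILMN_2108823 at both times (−0.90 and −0.06 on the log2 scale) and ZNRF3 at 48 h (−0.13). This comparison was chosen after seeing the data.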
